A study of Mus musculus with 14 samples.

Results

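The genes described here encode proteins of the secondary (specific) and tertiary (gelatinase) granules of neutrophils. They are Ltf, Camp, Ngp, Lcn2, Chil3, Mmp8, Mmp9, Fcnb, Itgb2l and Chil1, which make 10 of the 49583 genes in the deposited expression table. They were chosen by name, as a sign of cells between the myelocyte and the band stage, and all 10 were found by their Ensembl identifiers. Their levels and their share of all FPKM (fragments scaled to transcript length and library size) were followed across 7 sorted cell populations.

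RNA sequencing was done on 14 samples, 2 for each of 7 populations of wild type C57BL/6 mice. Spleen Ter cells were Ter-119+CD45-Lin- cells of the spleen of tumour-bearing mice, and liver Ter cells were sorted with the same gate from embryonic liver at E14.5. Bone marrow of mice without a tumour label gave common myeloid progenitors (CMP), megakaryocyte-erythroid progenitors (MEP), hematopoietic stem cells (HSC) and common lymphoid progenitors (CLP), and the control was the CD45+Ter-119- fraction of spleens from tumour-bearing mice. All 4 marrow gates were c-Kit+ and Lin-; HSC and CLP were Sca-1+, CLP also IL-7R+, and CMP and MEP were FcγRlo and lacked Sca-1 and IL-7R, with CD34- written for CMP and CD34+ for MEP. The labels give a purity above 98% and name neither the tumour, the age of the adult mice, nor the number of animals behind a sample.

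Neutrophil granules are made in sequence. Primary granules with myeloperoxidase and elastase are filled at the promyelocyte stage, specific granules with lactoferrin, cathelicidin and lipocalin at the myelocyte and metamyelocyte stages, and gelatinase granules at the band stage. The transcription factor C/EBPε, encoded by Cebpe, is needed for specific granules in mice and humans. Mature blood neutrophils keep the proteins but make less of much of the corresponding mRNA. The transcripts are therefore read as a sign of cells that are filling granules, which need not hold for each gene.

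The table holds 1 value per population, the authors' mean of 2 samples. In the spleen Ter, liver Ter, CMP and MEP columns the digits of each mean could be resolved into whole fragment counts of the 2 libraries behind it, which gave depths of 13413530.5 to 28537889 fragments. These libraries carry no replicate number, so the deeper of each pair is called library A and the other library B. The CLP, HSC and control columns are written in another number format and could not be resolved, so no test was run on them. Nothing states that the 2 samples of a population came from separate animals, so a p-value measures only the spread between these samples.

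Marker genes went against the gate in several columns. In the MEP column the erythroid genes Klf1, Epor and Hbb-bs stood at 1.26, 0.685 and 4.20 FPKM and Cd34 at 0.0694 FPKM, against a gate written as CD34+, while S100a9 reached 84794 FPKM. The 10 neutrophil markers, 4 of which are granule genes of this list, held 36.3% of all FPKM there. That column is therefore called MEP-labelled here. The CMP column held Cd34 at 29.7 FPKM, against a gate written as CD34-, and its 6 myeloid progenitor markers (Mpo, Elane, Prtn3, Ctsg, Ms4a3 and Cebpa) at 60.5 to 2673 FPKM. Spleen Ter cells, gated CD45-Lin-, held 13.8% of FPKM in 10 erythroid markers and 5.83% in the 10 neutrophil markers, with 0.305% in 6 B cell, 0.153% in 8 macrophage, 0.116% in 5 NK cell and 0.0737% in 6 T cell markers. Liver Ter cells held 49.2% in the erythroid and 0.0728% in the neutrophil markers. The Lin- HSC and CLP columns held 2.40% and 3.46% in the neutrophil markers and 0.103% and 0.169% in the B cell markers, and HSC held 0.00394% in 6 stem cell markers. The 6 mast cell and basophil markers held 0.363% in HSC, 0.0645% in CLP and 0.545% in CMP. The control held 0.181% in the neutrophil and 0.483% in the B cell markers. The neutrophil markers moved with the granule genes over the columns, and the part of neutrophils or of other cells outside the gate in these levels was not tested.

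The granule genes took 1.93% of all FPKM in spleen Ter cells, 0.0228% in liver Ter cells, 0.374% in CMP, 17.6% in MEP-labelled cells, 0.890% in HSC, 1.19% in CLP and 0.0679% in the CD45+ spleen control. The highest share was in a population labelled as an erythroid and megakaryocyte progenitor, and the lowest in the embryonic Ter cells. The order from high to low was MEP-labelled, spleen Ter, CLP, HSC, CMP, control and liver Ter. Granule gene levels of single libraries were also set against the total FPKM of the mean column, not of the library itself. The share was then 0.582% with CMP library A and 0.166% with CMP library B. It was 0.0266% and 0.0191% with liver Ter libraries A and B. CMP thus stayed below HSC and above the control with either library. The shares of spleen Ter, CLP and HSC have no such spread to be set against. In bulk RNA a smaller number of granule-filling cells and less granule mRNA per cell cannot be told apart.

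**Figure D1:**
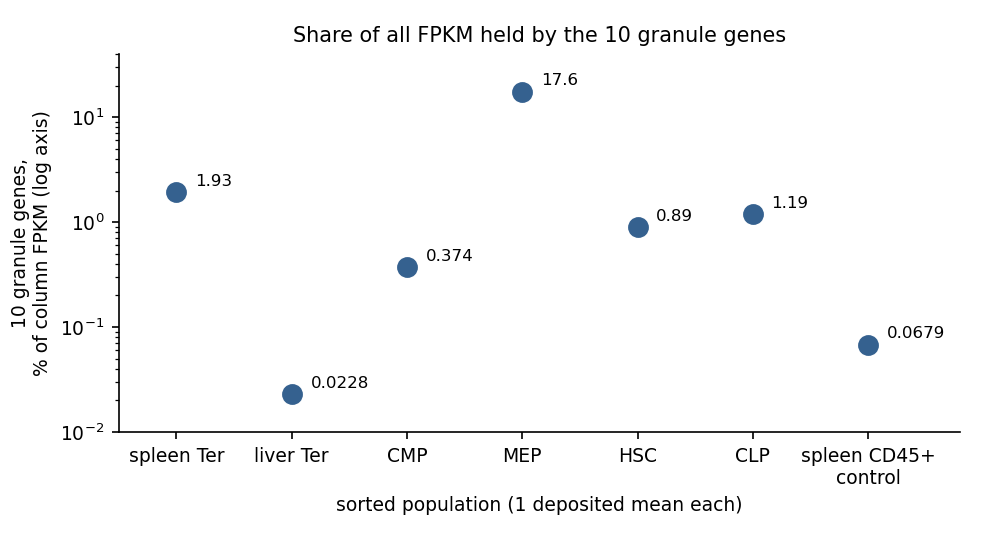
Share of each column's total FPKM taken by the 10 granule genes, in percent on a log axis, 1 point per sorted population (the deposited mean of 2 samples). MEP-labelled cells are highest at 17.6%, spleen Ter cells next at 1.93%, and liver Ter cells lowest at 0.0228%.

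The group was led by the same gene everywhere. Ngp, neutrophilic granule protein, was the highest of the 10 in all 7 columns, with 37.1% to 50.9% of the group's FPKM, and Camp came next in all 7. The 5 highest genes of a column made 89.4% to 97.7% of the group's FPKM. They were Ngp, Camp, Ltf, Lcn2 and Chil3 in every column but that of liver Ter cells, where Fcnb stood in the place of Chil3. In MEP-labelled cells Ngp ranked 2, Camp 4, Chil3 6, Ltf 7 and Lcn2 8 among all genes by FPKM. In spleen Ter cells Ngp ranked 14, Camp 17 and Chil3 26, whereas in the CD45+ spleen control Ngp ranked 436 and Camp 842. All 10 genes were at 1 FPKM or more in spleen Ter cells, CMP, MEP-labelled cells, HSC and CLP, 8 were in the control and 5 in liver Ter cells.

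**Figure D2:**
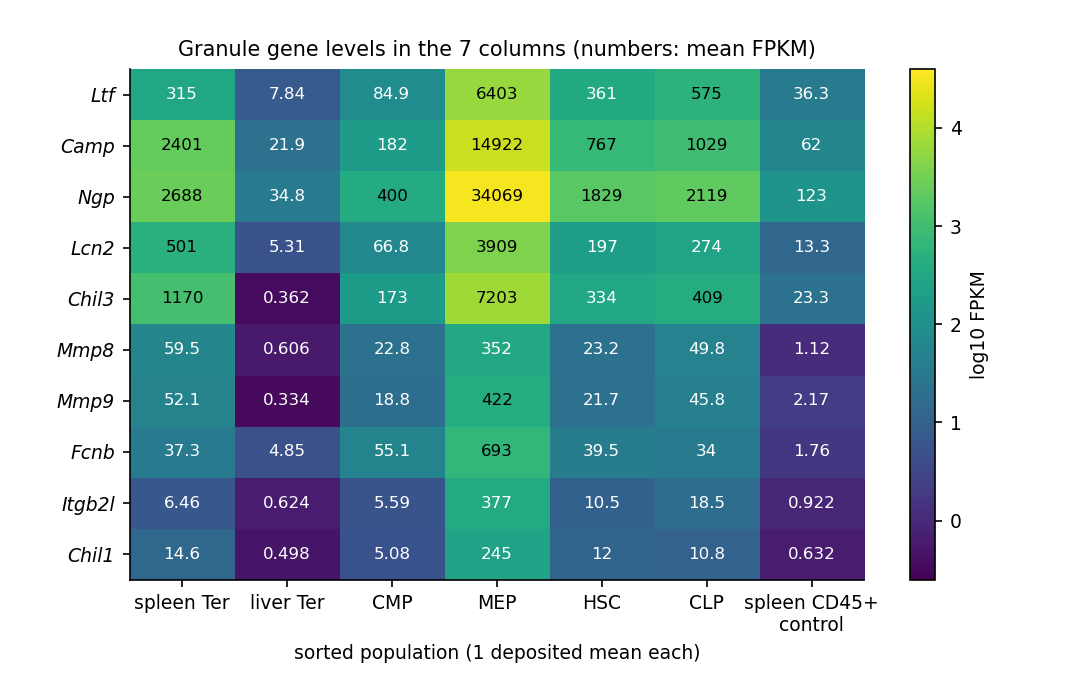
Mean FPKM of each granule gene (vertical axis) in each of 7 sorted populations (horizontal axis), printed in the cells and coloured on a log10 scale. Every gene is highest in the MEP-labelled column, and 9 of 10 are lowest in liver Ter cells.

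Of the proteins that bind iron or act on microbes, lactoferrin (Ltf) sequesters iron. Ltf stood at 577 and 54.1 FPKM in spleen Ter libraries A and B, 9.36 and 6.31 FPKM in liver Ter libraries A and B, and 148 and 22.1 FPKM in CMP libraries A and B. Its mean was 6403 FPKM in MEP-labelled cells, 361 FPKM in HSC, 575 FPKM in CLP and 36.3 FPKM in the control. Both spleen libraries lay above both liver libraries, but the spleen and CMP libraries interleaved, since library B of the spleen was below library A of CMP. Lipocalin 2 (Lcn2) captures the siderophores with which bacteria take up iron. Lcn2 stood at 896 and 105 FPKM in spleen Ter libraries A and B, 5.69 and 4.93 FPKM in liver Ter libraries A and B, and 113 and 20.8 FPKM in CMP libraries A and B. Its mean was 3909 FPKM in MEP-labelled cells, 197 FPKM in HSC, 274 FPKM in CLP and 13.3 FPKM in the control. As for Ltf, the spleen libraries stood clear of the liver libraries and overlapped with those of CMP.

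Cathelicidin (Camp) is the precursor of the antimicrobial peptide CRAMP, and Ngp encodes a cystatin-related protein of mouse neutrophil granules. Camp averaged 2401 FPKM in spleen Ter cells, 14922 FPKM in MEP-labelled cells, 767 FPKM in HSC, 1029 FPKM in CLP and 62.0 FPKM in the control; it stood at 26.6 and 17.2 FPKM in liver Ter libraries A and B and at 285 and 79.8 FPKM in CMP libraries A and B. Ngp averaged 2688 FPKM in spleen Ter cells, 34069 FPKM in MEP-labelled cells, 1829 FPKM in HSC, 2119 FPKM in CLP and 123 FPKM in the control; it stood at 40.6 and 29.0 FPKM in liver Ter libraries A and B and at 654 and 146 FPKM in CMP libraries A and B. The spleen means of both genes lay above the higher CMP library. They could not be resolved into libraries, because 3 pairs of fragment counts gave the deposited digits for each. For Camp these pairs were 4545 and 257 FPKM, 2839 and 1964 FPKM, or 1132 and 3670 FPKM in libraries A and B, and for Ngp 5080 and 297 FPKM, 4021 and 1355 FPKM, or 64.2 and 5312 FPKM.

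Chil3 and Chil1 encode chitinase-like proteins without chitinase activity (Chil3 is also called Ym1), and Chil3 is also made by alternatively activated macrophages. Chil3 averaged 1170 FPKM in spleen Ter cells, 7203 FPKM in MEP-labelled cells, 334 FPKM in HSC, 409 FPKM in CLP and 23.3 FPKM in the control, and stood at 0.515 and 0.210 FPKM in liver Ter libraries A and B and at 221 and 126 FPKM in CMP libraries A and B. The 3 pairs possible for the spleen mean were 1712 and 627 FPKM, 920 and 1420 FPKM, or 127 and 2212 FPKM in libraries A and B. Chil3 ranked 3 of 10 in the group in spleen Ter cells but 9 of 10 in liver Ter cells. Its near-identical neighbour Chil4, whose reads the counting could have confused with it, was at 0.0470 FPKM in spleen Ter cells and 0.358 FPKM in MEP-labelled cells, and at most 3.46 FPKM (in CLP). Chil1 stood at 24.5 and 4.63 FPKM in spleen Ter libraries A and B, 0.487 and 0.508 FPKM in liver Ter libraries A and B, 9.02 and 1.14 FPKM in CMP libraries A and B, and 235 and 256 FPKM in MEP-labelled libraries A and B. Its mean was 11.98 FPKM in HSC, 10.8 FPKM in CLP and 0.632 FPKM in the control. Only the spleen and CMP libraries of Chil1 overlapped among these 4 populations.

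Ficolin-B (Fcnb) is a lectin that recognises sugars on microbes, and Itgb2l encodes a protein like the integrin β2 chain. Fcnb stood at 70.9 and 3.75 FPKM in spleen Ter libraries A and B, 4.50 and 5.20 FPKM in liver Ter libraries A and B, 64.3 and 45.9 FPKM in CMP libraries A and B, and 677 and 708 FPKM in MEP-labelled libraries A and B. Its mean was 39.5 FPKM in HSC, 34.0 FPKM in CLP and 1.76 FPKM in the control. Fcnb was the only gene of the 10 with a higher mean in CMP than in spleen Ter cells, and the only gene whose lowest column was the control. Itgb2l stood at 12.9 and 0.0702 FPKM in spleen Ter libraries A and B, 0.704 and 0.544 FPKM in liver Ter libraries A and B, 9.10 and 2.08 FPKM in CMP libraries A and B, and 398 and 357 FPKM in MEP-labelled libraries A and B. Its mean was 10.54 FPKM in HSC, 18.5 FPKM in CLP and 0.922 FPKM in the control. The Itgb2l value in spleen library B rests on 3 fragments. For both genes the 2 spleen libraries lay on either side of the liver pair.

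Mmp8 and Mmp9 encode the neutrophil collagenase of specific granules and the gelatinase that names the tertiary granules. Mmp8 stood at 58.2 and 60.9 FPKM in spleen Ter libraries A and B, 0.766 and 0.447 FPKM in liver Ter libraries A and B, 41.2 and 4.40 FPKM in CMP libraries A and B, and 372 and 331 FPKM in MEP-labelled libraries A and B. Its mean was 23.2 FPKM in HSC, 49.8 FPKM in CLP and 1.12 FPKM in the control. Mmp9 stood at 46.8 and 57.3 FPKM in spleen Ter libraries A and B, 0.426 and 0.242 FPKM in liver Ter libraries A and B, 35.5 and 2.19 FPKM in CMP libraries A and B, and 440 and 403 FPKM in MEP-labelled libraries A and B. Its mean was 21.7 FPKM in HSC, 45.8 FPKM in CLP and 2.17 FPKM in the control. For these protease genes the libraries of the 4 populations did not overlap, and the 2 spleen libraries lay close together.

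Ordered by column, the genes followed nearly a common pattern. MEP-labelled cells were highest for 10 of 10 genes, from 5.90-fold above the next column for Mmp8 to 20.4-fold for Itgb2l. Spleen Ter cells were at rank 2 for 7 genes and at rank 4 for Ltf, Fcnb and Itgb2l. CMP was at rank 5 for 9 genes and at rank 2 for Fcnb. The ratio of the spleen Ter mean to the CLP mean ran from 0.350 (Itgb2l) to 2.86 (Chil3). That to the HSC mean ran from 0.613 (Itgb2l) to 3.50 (Chil3). With 1 mean per column, spleen Ter cells, HSC and CLP cannot be separated by a spread.

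The genes lie on 5 chromosomes. Ltf (chr9:111019271-111042767), Camp (chr9:109847379-109849617) and Ngp (chr9:110419747-110423012) lie near each other on chromosome 9, which also holds Mmp8 (chr9:7558456-7568485), in the mm10 build. Lcn2 (chr2:32384633-32388252), Fcnb (chr2:28076378-28084885) and Mmp9 (chr2:164940780-164955850) lie on chromosome 2, Chil3 (chr3:106147554-106167564) on chromosome 3, Itgb2l (chr16:96422288-96443619) on chromosome 16 and Chil1 (chr1:134182176-134190181) on chromosome 1. No other gene of the table overlaps any of them. Since the group followed nearly a common order of columns, the promoters were read for the letters that C/EBP factors are known to bind. RefSeq promoters (GRCm38.p6, 250 bases before to 50 after the start) were at hand for 9 of the 10 genes, all but Mmp9. The motif TTGCNNAA, read on both strands, was present in 5 of these 9 and in 10.8% of 32851 promoters of the same length. Of the 7 matches, that of Lcn2 and the later one of Ngp lie before the RefSeq start but inside the gene spans given above. All 7 are shown with their flanks on the gene's own strand, 5′ to 3′, with the motif in capitals.
Fcnb, chr2:28085095-28085124, minus strand: caaggcaggccTTTTGCAAacagaggtgcc
Fcnb, chr2:28084983-28085012, minus strand: ttttaggtctcTTGTGCAAccagaggcctc
Lcn2, chr2:32387937-32387966, minus strand: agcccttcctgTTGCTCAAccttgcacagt
Mmp8, chr9:7558399-7558428, plus strand: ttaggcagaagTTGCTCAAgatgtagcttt
Ngp, chr9:110419659-110419688, plus strand: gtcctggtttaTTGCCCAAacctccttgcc
Ngp, chr9:110419786-110419815, plus strand: accggcagttcTTGGGCAAggcagtctcaa
Ltf, chr9:111019206-111019235, plus strand: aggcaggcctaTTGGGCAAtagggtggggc

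Ltf encodes the protein by which secondary granules are usually recognised, and its promoter is shown at greater length. Its match begins at position -75 from the RefSeq start and is shown in capitals within the 229 bases that lead up to the annotated transcript.
Ltf, chr9:111019042-111019270, plus strand: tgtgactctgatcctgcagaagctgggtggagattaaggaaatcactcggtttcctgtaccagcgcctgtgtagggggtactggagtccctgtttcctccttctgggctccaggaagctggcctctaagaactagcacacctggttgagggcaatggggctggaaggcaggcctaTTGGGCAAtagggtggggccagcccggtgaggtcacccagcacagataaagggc
The motif GAGGAA of PU.1 was present in 4 of the 9 promoters (Lcn2, Mmp8, Ltf and Itgb2l) and in 28.3% of all, and TATAAA in 2 of 9 (Chil3 and Mmp8) and in 13.6% of all. Matches overlap no other of the searched motifs in the sequences shown. A match describes letters only and is no site of binding, and no match says only that these letters are not in this window.

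Spleen Ter cells were set against liver Ter cells, which carry the same surface gate in the embryo. Ltf, Lcn2, Chil1, Mmp8 and Mmp9 rose in spleen Ter cells, so 5 of the 7 genes that could be tested were called higher and 0 lower; over all 13024 genes tested 43.2% were called higher. The test was limma on log2(FPKM + 1) of the 8 libraries, a scale that understates the change of low genes, and a call needed a 2-fold difference with a p under 0.05 after Benjamini-Hochberg adjustment. Lcn2 had a log2 fold change of 5.61 ± 1.17 (SE, limma adjusted p = 0.0072), Mmp9 of 5.31 ± 0.98 (adjusted p = 0.0029), Mmp8 of 5.24 ± 0.83 (adjusted p = 0.0014), Ltf of 4.36 ± 1.31 (adjusted p = 0.028) and Chil1 of 3.001 ± 0.87 (adjusted p = 0.019). Fcnb, at 1.66 ± 1.10, and Itgb2l, at 1.25 ± 1.13, did not pass (limma adjusted p = 0.22 and 0.36). These were the 2 genes whose libraries overlapped, and the overlap over all genes was not counted. The median log2 fold change was 4.36 over the 7 genes and 0.80 over all genes tested. The fit gives the 4 populations a common spread although the spleen libraries differed most from each other, so these standard errors may be too small.

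For Camp, Ngp and Chil3 each possible pair of spleen libraries was put into the same limma fit. Camp was called higher with all 3 pairs, at log2 fold changes of 5.59 to 6.72, and Chil3 with all 3, at 8.62 to 9.72. Ngp was called with 2 of 3 pairs, at 5.12 and 6.05, and not with the pair of 64.2 and 5312 FPKM, at 4.06 ± 2.02 (limma adjusted p = 0.12). As means, all 10 genes were more than 2-fold higher in spleen Ter cells on the log2(FPKM + 1) scale, as were 53.4% of genes. With median-of-ratios factors in place of the authors' totals, 3 genes (Lcn2, Mmp8 and Mmp9) were called higher, as were 3558 of 12598 genes. The median of all genes was then 0.11 in place of 0.80, and 53.0% of calls were higher in place of 78.7%. The calls of Ltf and Chil1 did not hold without spleen Ter library A or without either liver Ter library. Ltf stood at 2.66 and Chil1 at 1.91 without spleen Ter library A. Without spleen Ter library B, Ltf stood at 6.05, Chil1 at 4.09, Fcnb at 3.62 and Itgb2l at 3.09. Without spleen Ter library A the sign of Fcnb and Itgb2l turned, to -0.30 and -0.60.

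**Figure D3:**
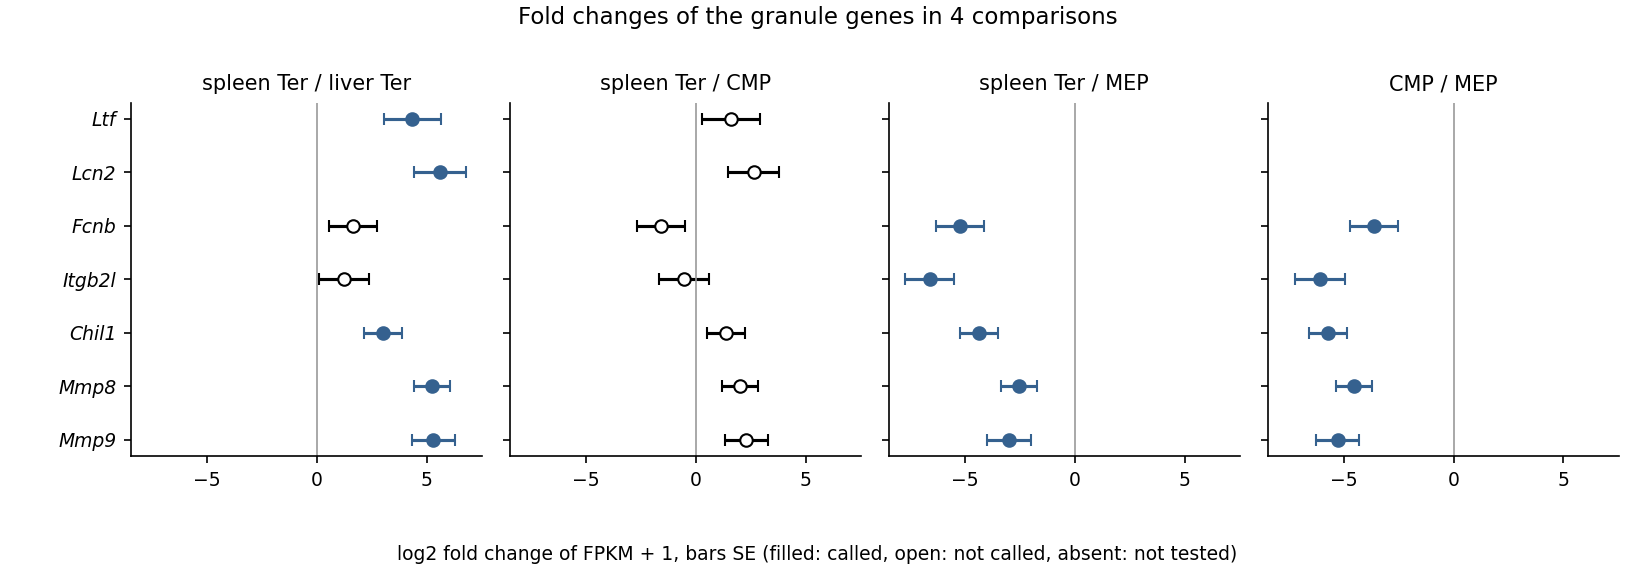
Log2 fold change of FPKM + 1 (horizontal axis, bars are SE from limma) for the 7 granule genes with resolved libraries in at least 2 comparisons. Filled points were called, open points were not, and genes without a point were not tested. Spleen Ter cells lie above liver Ter cells for 5 called genes and below MEP-labelled cells for all 5 tested, and no gene is called between spleen Ter cells and CMP.

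Against MEP-labelled cells, Mmp8, Mmp9, Fcnb, Itgb2l and Chil1 fell in spleen Ter cells, 5 of the 5 genes with resolved libraries in both; 19.5% of 12998 genes were called lower and 23.3% higher. The drop was widest for Itgb2l, at a log2 fold change of -6.62 ± 1.13 (SE, limma adjusted p = 0.0027), then Fcnb at -5.23 ± 1.10 (adjusted p = 0.0063) and Chil1 at -4.36 ± 0.87 (adjusted p = 0.0051). The protease genes differed least, Mmp9 at -3.00 ± 0.98 and Mmp8 at -2.54 ± 0.83 (limma adjusted p = 0.036 for both). Mmp8 and Mmp9 were not called once any of the 4 libraries was left out, with adjusted p-values of 0.073 to 0.13 for Mmp8 and 0.065 to 0.13 for Mmp9 in limma. The other 5 genes could not be tested because the digits of their MEP-labelled means allowed 37 to 1006 pairs each. All 10 means were more than 2-fold lower in spleen Ter cells on the log2(FPKM + 1) scale, as were those of 20.5% of genes (30.1% were higher), and the MEP-labelled mean exceeded the spleen Ter mean 5.90- to 58.4-fold.

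No granule gene was called between spleen Ter cells and CMP, 0 of 7 tested, with 13.9% of 13047 genes called higher and 28.3% lower. At an unadjusted p under 0.05 limma gave 1, Mmp8, and the share of all genes under that p was not counted. Mmp8 had a log2 fold change of 2.004 ± 0.83 (SE, limma adjusted p = 0.078), Mmp9 of 2.29 ± 0.98 (adjusted p = 0.086), Lcn2 of 2.63 ± 1.17 (adjusted p = 0.11), Ltf of 1.61 ± 1.31 and Chil1 of 1.37 ± 0.87, while Fcnb stood at -1.58 ± 1.10 and Itgb2l at -0.54 ± 1.13. In 5 of the 7 genes the spleen and CMP libraries overlapped, all but Mmp8 and Mmp9, and the overlap over all genes was not counted. The fold changes depend on single libraries. Without CMP library A, Mmp8 stood at 3.49 and Mmp9 at 4.05, and without CMP library B at 0.52 and 0.53. Without spleen Ter library B, Ltf stood at 3.30, Lcn2 at 4.17 and Chil1 at 2.46. Without spleen Ter library A, Fcnb stood at -3.54, Itgb2l at -2.38 and Ltf at -0.09. With median-of-ratios scaling Mmp8 and Mmp9 were called higher, as were 2570 of 12621 genes. That scaling raised the median of all genes to 0.06 in place of -0.41, and the share of calls that were higher to 58.3% in place of 33.0%.
Of the unresolved genes, Camp was called higher than in CMP with 2 of its 3 pairs, Chil3 with 2 of 3 and Ngp with 1 of 3. As means, 8 of 10 genes exceeded their CMP value more than 2-fold on the log2(FPKM + 1) scale and 0 were lower to that extent, against 18.7% and 28.1% of all genes. Fcnb and Itgb2l were the exceptions.

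CMP was set against MEP-labelled cells as the neighbouring gate. All 5 testable genes fell in CMP, against 7.36% of 13015 genes called lower and 24.4% higher. Itgb2l had a log2 fold change of -6.08 ± 1.13, Chil1 of -5.73 ± 0.87, Mmp9 of -5.29 ± 0.98, Mmp8 of -4.54 ± 0.83 and Fcnb of -3.65 ± 1.10 (SE, limma adjusted p from 0.0024 to 0.033). The libraries did not overlap for any of the 5, and the overlap over all genes was not counted. Fcnb was no longer called when any of the 4 libraries was left out (limma adjusted p of 0.11 to 0.14), and the other 4 were called each time. With median-of-ratios scaling the median of all genes was -0.07 in place of 0.41 and 39.2% of calls were higher in place of 76.8%. All 10 means were at least 2-fold lower in CMP, 12.6- to 85.3-fold, against 9.25% of genes. The comparisons of spleen Ter cells share the spleen libraries, and those with MEP-labelled cells share its libraries, so they are not independent.

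Against the CD45+ control, also from spleens of tumour-bearing mice, only means can be compared. Each of the 10 exceeded the control more than 2-fold on the log2(FPKM + 1) scale, against 13.5% of 13835 genes (28.4% were lower), with ratios of means from 7.01 to 53.0 and a median of 23.5. The widest ratio was that of Mmp8, at 59.5 FPKM in spleen Ter cells and 1.12 FPKM in the control, and the narrowest that of Itgb2l, at 6.46 FPKM in spleen Ter cells and 0.922 FPKM in the control. Against HSC, 5 genes were higher to that extent and 0 lower (14.2% and 34.1% of all genes), and against CLP 2 were higher, Camp and Chil3, and 1 was lower, Itgb2l (15.5% and 35.9% of all genes). With median-of-ratios scaling 5 were higher than in CLP and 0 lower. The share of all genes with that scaling is not given here, so this shift cannot be read as particular to the granule genes. The columns differ in number format, and none of these differences was tested.

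The 2 spleen Ter libraries did not carry the same mixture of granule transcripts. In library A, Ltf was 10.7-fold, Lcn2 8.52-fold, Fcnb 18.9-fold and Chil1 5.29-fold as high as in library B, whereas Mmp8 was 0.956-fold and Mmp9 0.816-fold. The ratio of Mmp9 to Ltf, chosen after its values were seen, was 0.0811 in spleen Ter library A and 1.06 in library B. It was 0.0455 and 0.0383 in liver Ter libraries A and B, 0.240 and 0.0992 in CMP libraries A and B, and 0.0658, 0.0600, 0.0796 and 0.0600 from the means of MEP-labelled cells, HSC, CLP and the control. Spleen library B stood apart from every other library and column in this ratio, and likewise in that of Mmp8 to Ltf, at 1.13 against 0.101 in spleen library A. Over all genes the spleen libraries also differed: 29.3% of 12629 genes were at least 2-fold apart on the log2(FPKM + 1) scale, 23.1% of the genes being higher in B and 6.19% higher in A.

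**Figure D4:**
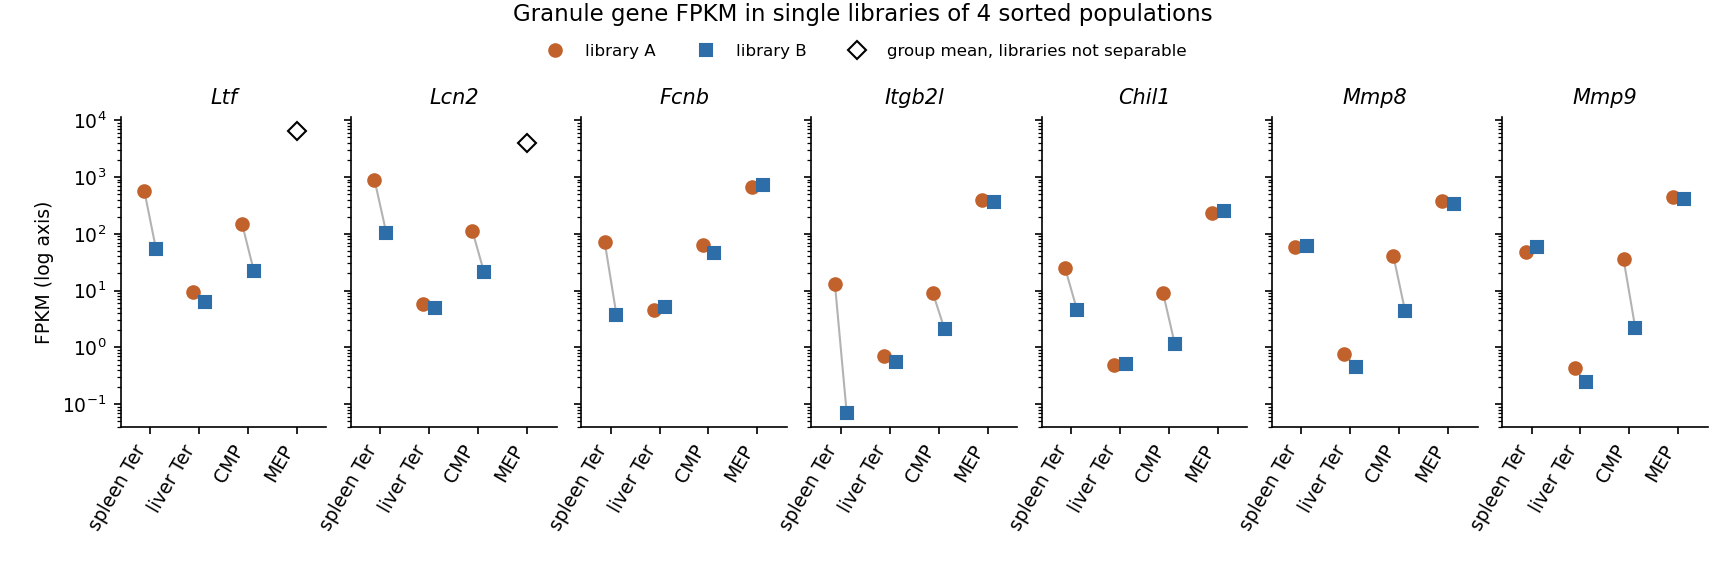
FPKM on a log axis of the 7 granule genes with resolved spleen Ter libraries, by library (circles are library A, squares library B, joined by a line) in 4 populations; open diamonds are means that could not be resolved. Spleen Ter library B lies far below library A for Ltf, Lcn2, Fcnb, Itgb2l and Chil1 but beside it for Mmp8 and Mmp9.

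**Figure D5:**
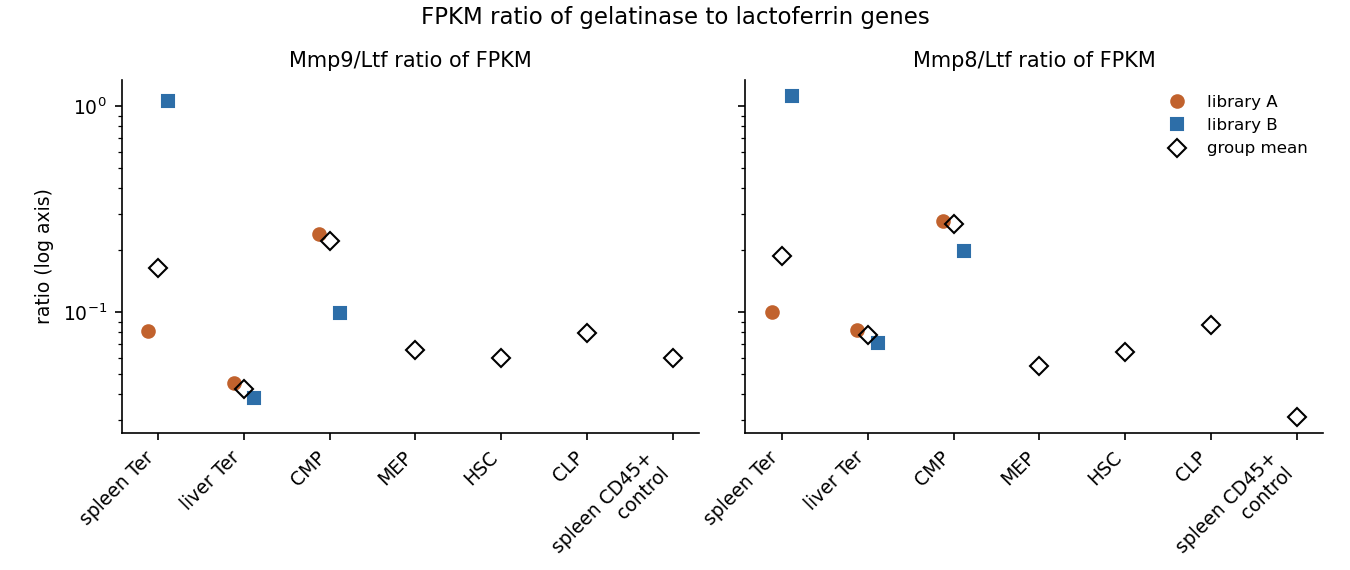
Ratio of Mmp9 (left) and of Mmp8 (right) to Ltf FPKM, on a log axis, in single libraries (filled) and deposited means (open diamonds) of 7 populations. Spleen Ter library B is at 1.06 and 1.13, and the next highest point of each panel is CMP library A, at 0.240 and 0.278.

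Other transcripts differed between the spleen Ter libraries too; those named here were chosen after their values were seen. Retnlg, an mRNA of mature neutrophils, stood at 1269 and 1155 FPKM in spleen Ter libraries A and B, close to each other like Mmp8 and Mmp9, but most of its list was higher in A. The 9 mature neutrophil genes resolved in all 8 libraries summed to 880 FPKM in A and 490 FPKM in B, and Wfdc21 stood at 662 and 128 FPKM. Cebpe stood at 19.7 and 2.39 FPKM, Ly6g at 102 and 16.3 FPKM, Elane at 250 and 17.3 FPKM and Ms4a3 at 27.4 and 0.401 FPKM in libraries A and B, all higher in A. The erythroid genes Alas2 (366 and 32.3 FPKM) and Klf1 (17.5 and 0.584 FPKM) were higher in A as well, and the 8 macrophage markers were higher in B, with summed levels of 140 FPKM in A and 1012 FPKM in B. The 6 B cell markers summed to 1002 FPKM in A and 1296 FPKM in B, and the 6 T cell markers to 241 FPKM in A and 314 FPKM in B. The part of these other cells in the granule gene levels was not tested.

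CMP showed a different kind of split. Its libraries were alike over all genes, with 3.04% of 11701 at least 2-fold apart on the log2(FPKM + 1) scale, yet 8 of the 10 granule genes were at least 2-fold higher in library A, Mmp9 16.2-fold, Mmp8 9.36-fold, Chil1 7.89-fold and Ltf 6.69-fold. Chil3, at 1.76-fold, and Fcnb, at 1.40-fold, were closer. Retnlg at 178 and 8.58 FPKM and Ly6g at 13.1 and 1.19 FPKM in libraries A and B ran the same way, whereas the primary granule gene Ctsg stood at 905 and 1096 FPKM. In liver Ter cells 0 of 10 and in MEP-labelled cells 0 of 5 granule genes were at least 2-fold apart between libraries on that scale. Over all genes the share was also small, 1.427% of 7427 in liver Ter cells and 1.503% of 10179 in MEP-labelled cells. These counts of 0 therefore do not set the granule genes apart from other genes.

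The list set for the primary granules had another order of columns by its sum. The 10 genes of that list summed to 769 FPKM in spleen Ter cells, 55.2 FPKM in liver Ter cells, 7443 FPKM in CMP, 2372 FPKM in MEP-labelled cells, 957 FPKM in HSC, 653 FPKM in CLP and 190 FPKM in the control, so that CMP had the highest sum, where the secondary and tertiary genes had 1014 FPKM against 68595 FPKM in MEP-labelled cells. That sum is led by Elane, Mpo, Prtn3 and Ctsg; the median of the 10 was 216 FPKM in CMP and also 216 FPKM in MEP-labelled cells, Serpinb1a, Igsf6 and Hk3 were higher in MEP-labelled cells, and Nkg7 was highest in spleen Ter cells. In limma 4 of 10 were called higher and 0 lower in spleen Ter cells than in liver Ter cells, near the 43.2% higher over all genes, with Nkg7 and Serpinb1a the most abundant of them (log2 fold changes of 7.59 ± 0.16 and 5.25 ± 0.29, SE) and neutrophil elastase, Elane, not called (2.16 ± 1.14). The median log2 fold change of the list was 1.88, against 0.80 over all genes. That median was 3.37 without spleen Ter library B and 0.42 without library A (0.49 and 0.91 over all genes). Nkg7 is known from cytotoxic lymphocytes as well. Against CMP 1 of 7 tested was called higher (Nkg7, 1.25 ± 0.16) and 5 lower (13.9% and 28.3% over all genes), among them cathepsin G, Ctsg, at -6.14 ± 1.10, and against MEP-labelled cells 1 of 8 was higher and 6 lower (23.3% and 19.5% over all genes), among them Elane at -3.49 ± 1.14, which was not called with median-of-ratios scaling. In CMP against MEP-labelled cells 3 of 6 were higher, Ctsg at 3.602 ± 1.10 among them, and 2 lower (24.4% and 7.36% over all genes). With median-of-ratios scaling 0 were higher and 2 lower (1195 and 1855 of 12589 over all genes). Ctsg was not called without either CMP library (3.74 without A, 3.46 without B).

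The genes of other proteins of specific, gelatinase and secretory granules mostly rose against liver Ter cells. Of the 20 genes on that list, 16 of 18 tested were called higher in limma and 0 lower, against 43.2% and 11.7% of all genes (median log2 fold change 4.48, against 0.80), led by Cyba, a subunit of the phagocyte oxidase (6.67 ± 0.14, SE), and haptoglobin, Hp (5.52 ± 0.25). Olfactomedin 4, Olfm4, was not called (-0.79 ± 0.64). Against MEP-labelled cells 1 of 14 was higher and 9 lower (23.3% and 19.5% over all genes), with Pglyrp1, a peptidoglycan recognition protein, at -2.58 ± 0.60 and the integrin β2 gene Itgb2 at -2.66 ± 0.30. Against CMP 7 of 18 were higher and 1 lower (13.9% and 28.3% over all genes), among them Cyba (2.20 ± 0.14), Pglyrp1 (1.70 ± 0.60) and the formyl peptide receptor gene Fpr2 (3.25 ± 0.63). Pglyrp1 was not called without CMP library A (2.13) or B (1.27) or without spleen Ter library A (0.74). With median-of-ratios scaling 10 of 18 were higher, as were 2570 of 12621 genes. Without CMP library B the median of the list was 0.48 in place of 1.06. In CMP 1 of 14 was higher and 11 lower than in MEP-labelled cells (24.4% and 7.36% over all genes), with a median of -3.89 against 0.41 over all genes.

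Genes of mature neutrophils were higher in spleen Ter cells than in CMP for most of the list. In limma 9 of 13 tested were called higher than in CMP and 0 lower (13.9% and 28.3% over all genes), led by Retnlg (4.87 ± 1.32, SE), Wfdc21 (3.13 ± 0.84) and the cytokine gene Il1b (5.93 ± 0.89), with S100a11 not called (0.93 ± 0.33). The median log2 fold change of the list was 2.07, against -0.41 over all genes. Retnlg was not called without spleen Ter library A (4.80), nor Wfdc21 without CMP library B (2.46). The list median was 1.58 without spleen Ter library A, 1.51 without CMP library B and 2.53 without spleen Ter library B. Over all genes it was -0.27, -0.38 and -0.74. With median-of-ratios scaling 12 were called higher, as were 2570 of 12621 genes. Whether these genes differ from the 10 granule genes in this comparison was not tested. Against liver Ter cells 12 of 13 were higher and 1 lower (43.2% and 11.7% over all genes). Against MEP-labelled cells, where 23.3% of all genes were higher and 19.5% lower, 3 of 9 were higher, Il1b at 4.46 ± 0.89 and Stfa2l1 at 2.89 ± 0.69 among them, and 3 lower, with Ly6g not called (-2.83 ± 1.03). In CMP 0 of 9 were higher and 7 lower than in MEP-labelled cells (24.4% and 7.36% over all genes).

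The regulators of granule genes moved in both directions. Junb, a subunit of AP-1, stood at 706 and 958 FPKM in spleen Ter libraries A and B and rose against liver Ter cells (7.44 ± 0.28), CMP (3.14 ± 0.28) and MEP-labelled cells (3.18 ± 0.28, SE, each with a limma adjusted p of at most 0.00019). Cebpb, a C/EBP factor of emergency granulopoiesis, stood at 168 and 166 FPKM in spleen Ter libraries A and B and rose in the same comparisons (6.45 ± 0.22, 3.07 ± 0.22 and 2.79 ± 0.22). In all, 9 of 11 tested regulators were higher and 0 lower against liver Ter cells (43.2% and 11.7% over all genes), with a median of 2.98 against 0.80. Against CMP 2 were higher and 5 lower (13.9% and 28.3% over all genes), and against MEP-labelled cells 3 were higher and 5 lower (23.3% and 19.5% over all genes). Between CMP and MEP-labelled cells, 24.4% of all genes were higher in CMP and 7.36% lower. Of the 11 regulators 4 were higher in CMP, Irf8 at 4.89 ± 0.33 and Klf4 at 2.81 ± 0.39 among them. Those lower were 2, Cebpe at -3.40 ± 0.77 and Cebpd, and neither was called without CMP library B (-3.10 and -1.28). With median-of-ratios scaling 3 were higher and 4 lower (1195 and 1855 of 12589 over all genes). With that scaling the spleen Ter count against CMP was 2 higher and 3 lower (2570 and 1840 of 12621 over all genes). Cebpe itself, named here after its values were seen, averaged 11.03 FPKM in spleen Ter cells, 0.956 FPKM in liver Ter cells, 26.9 FPKM in CMP, 287 FPKM in MEP-labelled cells, 24.8 FPKM in HSC, 34.1 FPKM in CLP and 1.53 FPKM in the control.

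The genes of inhibitors and partners of the proteases and of lipocalin were low throughout, and 4 of 7 passed the filter. Timp2, an inhibitor of matrix metalloproteases, stood at 10.6 and 25.3 FPKM in spleen Ter libraries A and B and rose against liver Ter cells (4.03 ± 0.39, SE, limma adjusted p = 0.00016) and CMP (2.72 ± 0.39, adjusted p = 0.0013), with no call against MEP-labelled cells (0.76 ± 0.39). Spp1 and the metalloprotease inhibitor Reck were also higher than in liver Ter cells and lower than in MEP-labelled cells, at log2 fold changes of -1.26 ± 0.32 and -2.01 ± 0.22 against MEP-labelled cells. Without spleen Ter library A, Spp1 was not called against MEP-labelled cells (-0.95) nor Reck against liver Ter cells (0.75). The list median against MEP-labelled cells was then 0.12 in place of -0.25, so its sign turned. The lipocalin receptor gene Slc22a17 averaged 1.12 FPKM in spleen Ter cells and 0.0543 FPKM in MEP-labelled cells. For the lists described here, no called gene changed sign with median-of-ratios scaling, with totals that leave out globin, or without any spleen Ter or CMP library.

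The genes whose profile over the 7 columns was most like the mean of the 10 were ranked by Pearson's r of log2(FPKM + 1), as a description over 7 points. Of 6952 named genes with at least 10 FPKM in a column, S100a9, a subunit of calprotectin, came first (r = 0.994), followed by Cd33 (0.993), Cd177 (0.993), Neat1 (0.989), Ifitm6 (0.989), Ly6g (0.987), Adam8 (0.985), Trem1 (0.984), Fosl1 (0.984) and Anxa1 (0.984). The profiles of these 10 share their libraries and peak in MEP-labelled cells, and 41 genes exceeded an r of 0.95. Of the 10, 7 are on the lists described here. Among the 10 granule genes themselves Lcn2 (0.995), Mmp9 (0.995) and Ngp (0.994) were closest to their mean and Itgb2l (0.947) and Fcnb (0.935) farthest. Fcnb was also the gene with the smallest fold change between CMP and MEP-labelled cells.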

How the data were processed

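RNA was extracted with Trizol and a QIAGEN kit and libraries were made with a TruSeq RNA kit, per the labels' protocols. The authors deposited FPKM values, 1 mean per population, and the build was mm10, per the submitters' processing notes. Aligner, counter, annotation and strand setting: not given in the sources used here. In all, the table had 49583 genes after 2 unnamed lines and 3 repeats were left out, and 49324 of them matched GENCODE M21.

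Because a mean of 2 libraries keeps whole-fragment steps in its 10 digits, single libraries of spleen Ter, liver Ter, CMP and MEP were computed from the deposited FPKM; 13851 of 14049 genes at 1 FPKM or more (98.6%) were resolved in all 8. Where the annotated exon length did not give whole fragments, a length was searched for, as for Itgb2l (2936 bases). The procedure was tested on simulated data. Depths of libraries A and B were 15107437.5 and 14545383 fragments for spleen Ter, 28537889 and 17537636 for liver Ter, 14636912.5 and 13413530.5 for CMP, and 24621750.5 and 20079202 for MEP.

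The design had foreseen this test on single libraries: limma (version 3.58.1, R 4.3.3), moderated by eBayes with a mean-dependent trend, on log2(FPKM + 1), 1 coefficient per population, genes with at least 1 FPKM in 2 libraries, Benjamini-Hochberg adjustment over all genes tested. Ltf and Lcn2 entered with 6 libraries because their MEP means were not resolved. Depth and counting error are unknown for HSC, CLP and the control, and 1 mean per population has no SD.

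The granule genes and the other lists were chosen with earlier results of these data known. From each list the text names the genes of highest spleen Ter FPKM among those called, then among those not called. Ptprc and Ly76 were not analysed here. Alternatives were other scalings, filters and pseudocounts, a fit of the 2 populations compared, and each library left out; putting each possible pair of Camp, Ngp and Chil3 into the fit was added after seeing the data. Promoters came from RefSeq (GRCm38.p6).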

Additional observations from a re-analysis of the deposited data

How the results depend on the processing

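No paired analysis was possible because the deposited columns carry no replicate numbers and the resolved libraries have none. With 1 library left out, its population keeps a single library, so fold changes are given here and calls are not counted. Calls were lost or gained in each comparison. Against liver Ter cells, Lcn2 stood at 4.07 without spleen Ter library A and 7.15 without library B, and Ltf at 2.66 and 6.05. Against MEP-labelled cells, Mmp9 stood at -2.85 and -3.14 in the same order, and Mmp8 at -2.51 and -2.57. Between CMP and MEP-labelled cells, Mmp9 stood at -7.05 without CMP library A and -3.53 without library B. With no filter on low values, 3 were called higher in spleen Ter than in liver Ter cells (5479 of 28226 over all genes). Against MEP-labelled cells 3 were then lower in spleen Ter cells (2404 of 28200) and 4 lower in CMP (867 of 28217). With median-of-ratios scaling 3 were higher than in liver Ter cells (3558 of 12598 over all genes) and 2 higher than in CMP (2570 of 12621). A pseudocount of 0.1 left Mmp9 uncalled against MEP-labelled cells (limma adjusted p = 0.054). The cause was not tested.

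Signs turned for single libraries: against liver Ter cells, Fcnb stood at -0.30 and Itgb2l at -0.60 without spleen Ter library A, and at 3.62 and 3.09 without spleen Ter library B. Against CMP, Ltf stood at -0.090 without spleen Ter library A and 3.30 without library B, Fcnb at -3.54 and 0.38, and Itgb2l at -2.38 and 1.31; Itgb2l stood at 0.32 without CMP library A and at 0.11 with median-of-ratios scaling. Over all alternatives of the tested single-gene fold changes, these included and the possible pairs left out, 195 values kept direction and side of the threshold, 26 lost the call, 11 gained it and 7 turned sign.

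Without globin in the totals the granule genes took 2.23% of FPKM in spleen Ter cells, 0.0436% in liver Ter cells and 0.891% in HSC. Without immunoglobulin genes they took 2.12% in spleen Ter cells, 0.898% in HSC, 1.20% in CLP and 0.0713% in the control. With median-of-ratios scaling 5 genes were at least 2-fold apart between spleen Ter cells and CLP, 5 higher and 0 lower (2 higher and 1 lower in the values as deposited). The share of all genes with that scaling is not given here. By Spearman's rho 20 genes tied at the highest value, 5 of the 10 most alike among them. Depth limits Itgb2l most, at 3 fragments in spleen Ter library B.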

Other observations

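The near relatives of the granule genes did not all follow the granule genes' order of columns. Ficolin-A (Fcna), the relative of Fcnb that macrophages of liver and spleen are known to make, averaged 105 FPKM in spleen Ter cells, 0.948 FPKM in liver Ter cells, 0.357 FPKM in CMP, 0.247 FPKM in MEP-labelled cells, 16.2 FPKM in HSC, 19.1 FPKM in CLP and 0.223 FPKM in the control. Fcna was thus highest in spleen Ter cells and near the bottom in the column where Fcnb was highest, at 693 FPKM. The 8 macrophage markers summed to 576 FPKM in spleen Ter cells, 12.9 FPKM in liver Ter cells, 12.1 FPKM in CMP, 15.9 FPKM in MEP-labelled cells, 182 FPKM in HSC, 257 FPKM in CLP and 10.1 FPKM in the control. Their part in the Fcna level was not tested.

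The integrin β2 chain gene Itgb2, expressed by most leukocytes, averaged 79.9 FPKM in spleen Ter cells and 71.5 FPKM in the control, where its relative Itgb2l stood at 6.46 FPKM and 0.922 FPKM. Like Itgb2l, Itgb2 was highest in MEP-labelled cells, at 493 FPKM, and lowest in liver Ter cells, at 1.46 FPKM. The chitinase-like gene Chil5 averaged 1.57 FPKM in spleen Ter cells and 7.77 FPKM in MEP-labelled cells and was listed at 0 in liver Ter cells, and Chil6 was at most 0.101 FPKM, in spleen Ter cells.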
